A study of Mus musculus with 22 samples.

Results

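The calcium/calmodulin-dependent (CaM) kinases, the inhibitors of CaM kinase II and neurogranin were examined in the hippocampus, cortex and cerebellum of wild-type mice and of mice with reduced circTulp4, a circular RNA spliced from the Tulp4 gene. The set holds 10 genes out of 23037 genes counted, chosen by name with earlier results of these data known. They are 4 subunits of CaM kinase II (Camk2a, Camk2b, Camk2d and Camk2g), 3 further kinases of the cascade (Camk4, Camk1d and Camkk2), the inhibitors Camk2n1 and Camk2n2, and Nrgn. All 10 passed the filter on low counts in every comparison. RNA was measured by CelSeq2 3′ RNA sequencing (RNA-seq), which primes polyadenylated RNA at its tail and counts reads near the 3′ end of a transcript. There were 22 libraries from 8 mice, which are named m and a number as in the sample titles. The study's own text counts fewer mice per group, without naming those left out, so every labelled library was used here. Wild-type mice gave 3 hippocampus, 4 cortex and 4 cerebellum libraries, and CD mice gave 4, 4 and 3. The circTulp4-deficient (CD) mice were generated on a C57BL/6 background by CRISPR-Cas9 injection of zygotes, with the splice acceptor of circTulp4 changed from AG to TC and a further change in the protospacer adjacent motif. The line descends from a single mosaic founder male bred to wild-type C57BL/6 females, and circTulp4 is lowered in these mice rather than absent. No treatment is given for either genotype, and the ages and sexes of the sequenced mice are not given in the sources used here.

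In this family, calcium that enters a neuron binds calmodulin, and calcium-loaded calmodulin switches the kinases on. CaM kinase II is a multimeric holoenzyme assembled from the products of the Camk2 genes, abundant at excitatory synapses and known for its part in long-term potentiation, while CaM kinases I and IV must also be phosphorylated by a CaM kinase kinase before they are fully active. Neurogranin holds calmodulin at low calcium, and the CaM kinase II inhibitor proteins bind the active kinase.

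The library totals, with 1 transcript counted per gene, were 2760846 to 8858940 counts, and the 10 genes took 1.34% to 1.73% of the counts in hippocampi, 2.53% to 3.74% in cortices and 0.5262% to 0.647% in cerebella. As a check of the genotype labels, the counts of the Tulp4 transcript that carries the circTulp4 exon were set against those of a transcript that lacks it. The excess was 1.45 to 13.6 cpm (counts scaled to a common library total) in the 11 wild-type libraries and 0.141 to 2.61 cpm in 10 of the 11 CD libraries, without overlap between the genotypes within a region. It rests on few counts, and a closed circular RNA has no tail to be primed, so the check is a weak one. Which RNA gave these reads was not tested. The lowest wild-type cortex (m244) had an excess of 4 counts (1.45 cpm), and the highest CD cortex (m190) had 8 counts (1.29 cpm). The library labelled CD hippocampus of mouse m118, the hippocampus library with the lowest total, had 3.97 cpm, against 2.71 to 3.69 in wild-type hippocampi and 0.423 to 0.573 in the other CD hippocampi, so the hippocampal genotype values of the 10 genes below are also given without it. Its excess was 16 counts, against 17 to 24 in wild-type hippocampi and 3 to 5 in the other CD hippocampi. Marker genes separated the regions as labelled. The summed level of 4 cortical markers (Tbr1, Cux2, Lamp5 and Rorb) was 647 to 842 cpm in cortices and at most 153 elsewhere, and that of 5 cerebellar markers (Gabra6, Zic1, Cbln1, Pcp2 and Car8) was 4479.5 to 5064 cpm in cerebella and at most 65.3 elsewhere. The 5 hippocampal markers (Prox1, Zbtb20, C1ql2, Dsp and Spink8) summed to 1582 to 2456 cpm in hippocampi, 134 to 254 in cortices and 365 to 473 in cerebella.

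Most of the 10 genes differed between regions. Genes are called different here where edgeR's quasi-likelihood test over the 22 libraries gave a false discovery rate (FDR, Benjamini-Hochberg over all 11137 genes tested) below 0.01 together with a difference of more than 2-fold in either direction. Between hippocampus and cortex, 6 of the 10 genes were called (Camk2d, Camk2g, Camk4, Camkk2, Camk2n1 and Camk2n2), all higher in the cortex. Of all genes tested, 8.41% were called in that comparison, and 4.38% passed with a higher level in the cortex. In the contrast of hippocampus and cerebellum, 8 of the 10 were called, against 22.8% of all genes. Camk2d, Camk4, Camkk2 and Camk2n2 were higher in the cerebellum (9.76% of all genes), and Camk2a, Camk1d, Camk2n1 and Nrgn were lower (13.0% of all genes). Between cortex and cerebellum, 7 of the 10 were called, against 22.6% of all genes, with Camk2d and Camk4 higher in the cerebellum (9.71% of all genes) and Camk2a, Camk2g, Camk1d, Camk2n1 and Nrgn lower (12.9%). The median absolute log2 fold change of the 10 genes was 1.06, 1.46 and 1.22 in these comparisons, beside 0.23, 0.43 and 0.43 over all genes tested. The ranges of the libraries of both regions did not overlap for 9, 9 and 7 of the 10 genes, beside 14.0%, 35.9% and 33.0% of all genes. Some markers of other cells also differed between regions, and others did not. No endothelial marker tested was called in any comparison. No microglia or inhibitory neuron marker was called between hippocampus and cortex. Of 3 inhibitory neuron markers (Gad1, Gad2 and Slc32a1), Slc32a1 was called higher in the cerebellum than in both other regions. The sums of the 3 were 212 to 299 cpm in hippocampi, 232 to 364 in cortices and 423 to 537 in cerebella. The 3 choroid plexus markers tested (Ttr, Folr1 and Kcne2) were called higher in the hippocampus than in both other regions. Among astrocyte markers, Gfap was called lower in the cortex and cerebellum than in the hippocampus. Aqp4 was called higher in the cerebellum than in both other regions. The 3 oligodendrocyte markers (Mbp, Mog and Mag) were all called lower in the cortex than in the hippocampus, with summed levels of 1817 to 3277 cpm in hippocampi, 603 to 1493 in cortices and 839 to 1419 in cerebella, and the 4 microglia markers (Cx3cr1, Csf1r, P2ry12 and C1qa) were all called lower in the cerebellum than in the other regions. Their part in the differences of the 10 genes was not tested. In RNA from whole tissue, fewer cells of a type and less RNA per cell cannot be told apart.

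**Figure D1:**
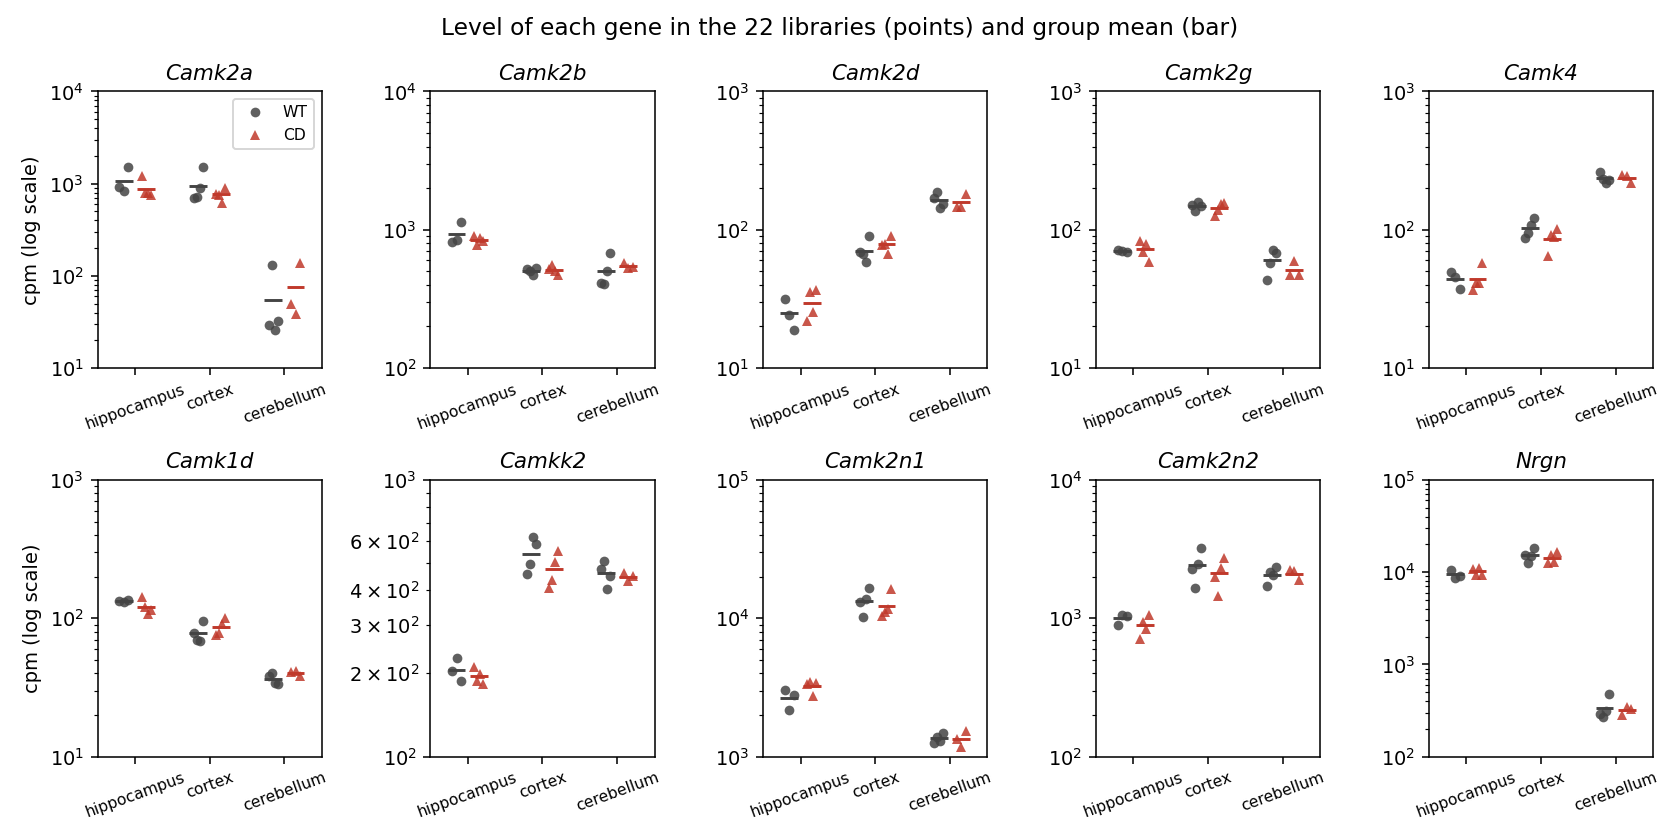
Cpm (counts scaled to a common library total by TMM, log axis) of the 10 genes in the 22 libraries, with wild-type libraries as grey circles, CD libraries as red triangles and the group means as bars. The Camk2a and Nrgn libraries of the cerebellum lie below all libraries of the other regions, those of Camk2d and Camk4 lie above them, and the points of both genotypes overlap in every panel and region.

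Camk2a encodes the alpha subunit of CaM kinase II, the form that prevails in forebrain excitatory neurons. Its level (in cpm scaled by edgeR's trimmed mean method, TMM) was 753 to 1500.4 cpm (median, 829) in the 7 hippocampi, 624 to 1497 cpm (median, 763) in the 8 cortices and 25.8 to 138.2 cpm (median, 38.7) in the 7 cerebella. Hippocampi and cortices overlapped, and all cerebella were lower. The log2 fold change of the cortex over the hippocampus was -0.20 ± 0.29 (FDR = 0.638) (± standard error, as in all fold changes below), and those of the cerebellum over the hippocampus and over the cortex were -3.92 ± 0.35 (FDR = 3.62e-10) and -3.72 ± 0.34 (FDR = 6.00e-10), or 15.2-fold and 13.2-fold lower. Camk2a was the most variable of the 10 genes within a region, with coefficients of variation of 29.0% (hippocampus), 32.1% (cortex) and 77.5% (cerebellum). Wild-type mouse m244 had the highest level of both its hippocampus group and its cortex group (1500.4 and 1497 cpm). In the cerebellum, wild-type mouse m164 had 131 cpm and CD mouse m242 had 138.2 cpm, while the other 5 cerebella had 25.8 to 49.2 cpm. In those 2 cerebella the summed cortical markers were 32.4 and 27.2 cpm, against 31.3 to 44.0 cpm in the other 5. The summed hippocampal markers were 473 and 427 cpm, against 365 to 473 cpm in the other 5. Nrgn was 271 and 324 cpm, against 283 to 479 cpm in the other 5. Why Camk2a was higher in these 2 cerebella was not tested.

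Camk2b encodes the beta subunit, which binds actin filaments. It was measured at 779.8 to 1134 cpm (median, 847) in the 7 hippocampi, 468 to 556 cpm (median, 512) in the 8 cortices and 408 to 680.2 cpm (median, 529.8) in the 7 cerebella. The hippocampi lay above all libraries of the other regions, and cortices and cerebella overlapped. The log2 fold changes were -0.80 ± 0.09 (FDR = 1.95e-07) in the cortex and -0.76 ± 0.10 (FDR = 3.10e-07) in the cerebellum over the hippocampus, both below the FDR threshold but under 2-fold, and 0.04 ± 0.09 (FDR = 0.707) in the cerebellum over the cortex. Between cortex and cerebellum, Camk2b thus did not pass the test, while Camk2a was 13.2-fold lower in the cerebellum. Among the 17 transcripts listed for Camk2b, 16 had totals within 1% of the highest, and the remaining one had 5.92% to 6.67% of the counts of the highest in the 3 regions (medians).

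Camk2d and Camk2g encode the delta and gamma subunits, which are also expressed widely outside the brain. Camk2d had 18.7 to 36.5 cpm (median, 25.2) in the 7 hippocampi, 58.4 to 89.8 cpm (median, 72.9) in the 8 cortices and 143 to 186 cpm (median, 155) in the 7 cerebella. No library of a region overlapped with a library of another region, and the order was hippocampus, cortex, cerebellum from low to high. The log2 fold change was 1.44 ± 0.13 (FDR = 1.35e-09) from hippocampus to cortex, 2.56 ± 0.13 (FDR = 7.21e-15) from hippocampus to cerebellum and 1.12 ± 0.12 (FDR = 6.87e-09) from cortex to cerebellum. Camk2d was 5.89-fold higher in the cerebellum than in the hippocampus, and the increase was seen in 6 of the 6 mice with both regions. Camk2g had 58.5 to 82.7 cpm (median, 70.2) in the 7 hippocampi, 126 to 159 cpm (median, 150.02) in the 8 cortices and 43.4 to 71.7 cpm (median, 57.4) in the 7 cerebella. It was highest in the cortex, where no library overlapped with those of the other regions, and hippocampi and cerebella overlapped. The cortex exceeded the hippocampus by a log2 fold change of 1.04 ± 0.10 (FDR = 4.27e-09), and the cerebellum was below the cortex by -1.40 ± 0.10 (FDR = 5.17e-12). The log2 fold change of the cerebellum over the hippocampus was -0.36 ± 0.10 (FDR = 0.00380), under the fold threshold. The Camk2g call between hippocampus and cortex lay at the fold threshold. Without the CD hippocampus of mouse m242 the log2 fold change was 0.99, below 2-fold.

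The RNA of the alpha subunit was set against that of the beta subunit as the log2 ratio of Camk2a to Camk2b counts per library. This measure does not depend on the scaling of libraries, and it is one of RNA, not of protein. The ratio averaged 0.10 ± 0.23 (SD, n = 7) in hippocampi, 0.70 ± 0.40 (SD, n = 8) in cortices and -3.35 ± 1.10 (SD, n = 7) in cerebella. It was higher in the cortex than in the hippocampus of the same mouse in 7 of 7 mice, by 0.63 ± 0.40 (SD, n = 7; two-sided exact paired permutation test, p = 0.0156, adjusted p = 0.0563). It was lower in the cerebellum in every mouse with the regions compared. It dropped by 3.75 from hippocampus to cerebellum (n = 6; exact paired permutation p = 0.0313, adjusted p = 0.0703) and dropped by 4.09 from cortex to cerebellum (n = 7; exact paired permutation p = 0.0156, adjusted p = 0.0563). These were the smallest p values that 7 and 6 mice allow, and none was below 0.05 after Benjamini-Hochberg adjustment over the 18 tests of ratios. The 2 cerebella with high Camk2a had ratios of -1.63 and -1.97, and the lowest ratio was -4.41.

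The 3 kinases outside CaM kinase II had 3 different regional orders. Camk4 encodes CaM kinase IV, a largely nuclear kinase that phosphorylates the transcription factor CREB and is abundant in cerebellar granule cells. It had 36.9 to 57.9 cpm (median, 41.2) in the 7 hippocampi, 64.4 to 121 cpm (median, 93.2) in the 8 cortices and 217 to 262 cpm (median, 234) in the 7 cerebella. No libraries of different regions overlapped, and the level rose from hippocampus to cortex to cerebellum, as for Camk2d. The log2 fold changes were 1.09 ± 0.11 (FDR = 1.08e-08) for cortex over hippocampus, 2.41 ± 0.11 (FDR = 1.20e-15) for cerebellum over hippocampus and 1.32 ± 0.10 (FDR = 2.67e-11) for cerebellum over cortex. Camk1d encodes CaM kinase I delta, a kinase that CaM kinase kinase activates. It had 107 to 144 cpm (median, 132) in the 7 hippocampi, 68.4 to 99.96 cpm (median, 77.9) in the 8 cortices and 33.4 to 41.5 cpm (median, 38.0) in the 7 cerebella. Its order was the opposite of that of Camk4, with no overlap between regions. It fell by 1.74 on the log2 scale from hippocampus to cerebellum (standard error, 0.09; FDR = 1.33e-14) and fell by 1.10 from cortex to cerebellum (standard error, 0.09; FDR = 6.34e-11), while the log2 fold change of -0.64 ± 0.08 (FDR = 1.07e-06) from hippocampus to cortex stayed under 2-fold.

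Camkk2 encodes CaM kinase kinase 2, which phosphorylates CaM kinases I and IV and the energy sensor AMPK. Its level was 182 to 227 cpm (median, 199) in the 7 hippocampi, 406 to 622 cpm (median, 502) in the 8 cortices and 403 to 508 cpm (median, 451) in the 7 cerebella. Cortices and cerebella overlapped, and all hippocampi were lower than both. The log2 fold change was 1.34 ± 0.08 (FDR = 2.90e-12) for cortex over hippocampus, 1.18 ± 0.09 (FDR = 9.90e-12) for cerebellum over hippocampus and -0.16 ± 0.08 (FDR = 0.0882) for cerebellum over cortex. The last 1000 bases of Camkk2 hold exons of P2rx4 on the opposite strand, and whether reads were counted by strand is not given in the sources used here. P2rx4 itself had 1.41 to 6.48 cpm over the 22 libraries, and none of the other 9 genes had such an overlap in the GENCODE vM21 annotation.

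The inhibitors differed between regions in different ways. Camk2n1 and Camk2n2 encode small proteins (CaM kinase II inhibitors alpha and beta) that block the active kinase. Camk2n1 had 2162 to 3482 cpm (median, 3051) in the 7 hippocampi, 10217 to 16435 cpm (median, 12418) in the 8 cortices and 1177 to 1522 cpm (median, 1341) in the 7 cerebella. All cortices were above all hippocampi, and these were above all cerebella. Camk2n1 was 4.37-fold higher in the cortex than in the hippocampus (log2 fold change, 2.13 ± 0.11 (FDR = 1.29e-13)), the largest difference of the 10 genes between these regions. It was 9.51-fold lower in the cerebellum than in the cortex (-3.25 ± 0.12 (FDR = 1.04e-17)) and 2.18-fold lower than in the hippocampus (-1.12 ± 0.11 (FDR = 3.45e-09)). In wild-type libraries alone the latter was -0.98 (log2), under 2-fold. Camk2n2 had 712 to 1056 cpm (median, 946) in the 7 hippocampi, 1448 to 3246 cpm (median, 2300.4) in the 8 cortices and 1709.5 to 2357 cpm (median, 2152) in the 7 cerebella, with the hippocampi below all other libraries and with overlap of cortices and cerebella. The log2 fold changes of Camk2n2 were 1.27 ± 0.13 (FDR = 2.48e-08) for cortex over hippocampus, 1.15 ± 0.13 (FDR = 5.80e-08) for cerebellum over hippocampus and -0.12 ± 0.13 (FDR = 0.428) for cerebellum over cortex.

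The log2 ratio of Camk2n1 to Camk2n2 counts averaged 1.68 ± 0.37 (SD, n = 7) in hippocampi, 2.52 ± 0.20 (SD, n = 8) in cortices and -0.62 ± 0.19 (SD, n = 7) in cerebella. Cerebella were the only libraries in which the ratio was below 0. Within mice, the ratio was higher in the cortex than in the hippocampus by 0.83 ± 0.40 (SD, n = 7; exact paired permutation p = 0.0156, adjusted p = 0.0563). It dropped by 2.26 ± 0.46 from hippocampus to cerebellum (SD, n = 6; exact paired permutation p = 0.0313, adjusted p = 0.0703) and dropped by 3.08 ± 0.14 from cortex to cerebellum (SD, n = 7; exact paired permutation p = 0.0156, adjusted p = 0.0563). The direction was the same in every mouse with the regions compared, and the difference between cortex and cerebellum had the smallest spread of all the ratios.

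Nrgn encodes neurogranin, a small calmodulin-binding protein of the dendrites and spines of forebrain neurons. It had 8728 to 11179 cpm (median, 9426) in the 7 hippocampi, 12628 to 18338 cpm (median, 15069.6) in the 8 cortices and 271 to 479 cpm (median, 310.1) in the 7 cerebella. All cortices were above all hippocampi, and cerebella were far below both. Nrgn was 30.1-fold lower in the cerebellum than in the hippocampus (log2 fold change, -4.91 ± 0.13 (FDR = 3.36e-20)) and 45.4-fold lower than in the cortex (-5.50 ± 0.14 (FDR = 5.26e-21)), the largest differences of the 10 genes. The cortex exceeded the hippocampus by 0.59 ± 0.11 (FDR = 9.35e-05), under 2-fold. The log2 ratio of Nrgn to Camk2a counts averaged 3.39 ± 0.40 (SD, n = 7) in hippocampi, 4.15 ± 0.27 (SD, n = 8) in cortices and 2.67 ± 1.13 (SD, n = 7) in cerebella. It was higher in the cortex than in the hippocampus in 7 of 7 mice, by 0.76 ± 0.18 (SD, n = 7; exact paired permutation p = 0.0156, adjusted p = 0.0563). From cortex to cerebellum it fell by 1.45 ± 1.24 on average (SD, n = 7), with a decrease in 6 of the 7 mice (exact paired permutation p = 0.0313, adjusted p = 0.0703) and the difference from hippocampus to cerebellum was -0.42 ± 1.22 (SD, n = 6; exact paired permutation p = 0.469). Slc17a7, Neurod6 and Neurod2 were listed as markers of forebrain excitatory neurons, the cells in which Nrgn and Camk2a are best known. Their sums were 1535 to 2052 cpm in hippocampi, 917 to 1201 in cortices and 663 to 819 in cerebella. The cerebellar sums came mostly from Neurod2 and Slc17a7, so they do not measure forebrain neurons. The 3 markers had different regional orders. Neurod6 had 523 to 724, 125 to 283 and 14.5 to 26.9 cpm in the same order of regions, and Slc17a7 had 419 to 721, 434 to 677 and 153 to 259.6 cpm. Neurod2, at 571 to 728, 243 to 373 and 422 to 555 cpm, was higher in all cerebella than in all cortices. Their part in the regional levels was not tested.

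**Figure D2:**
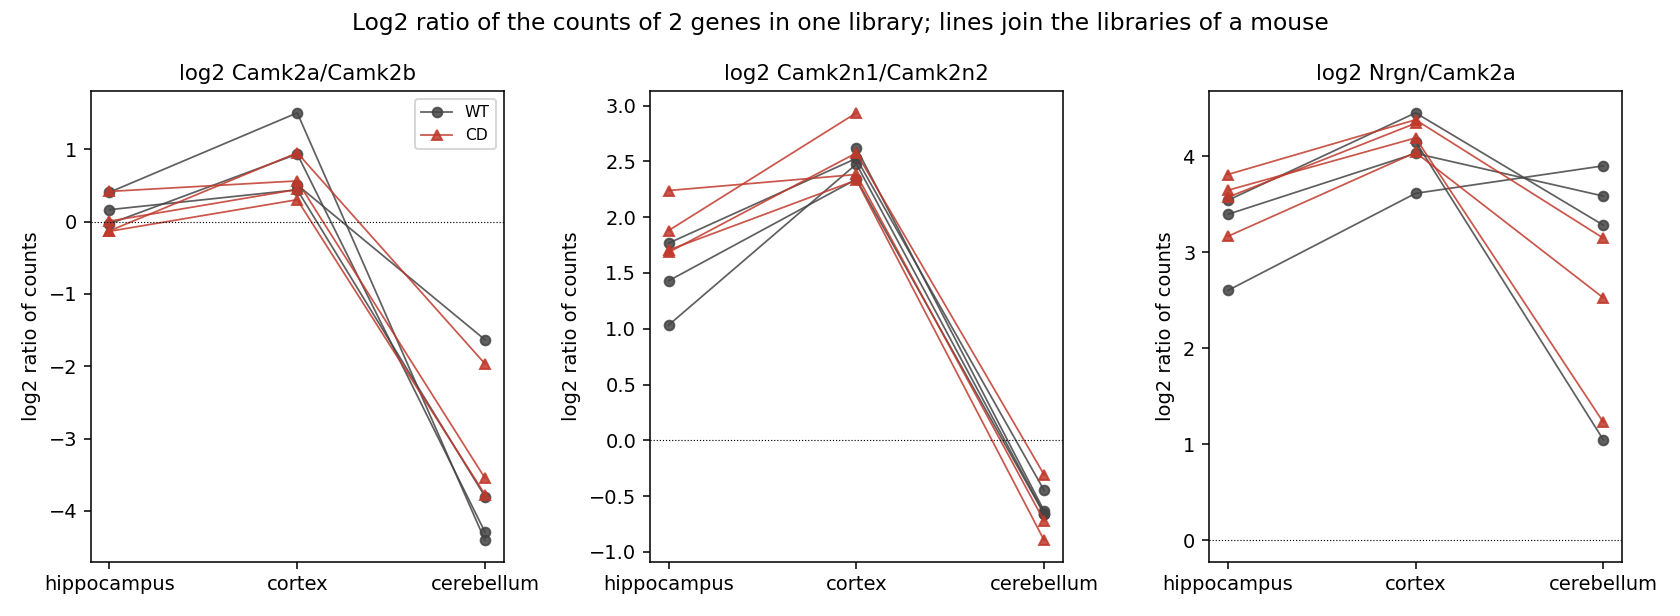
Log2 ratios of the counts of Camk2a to Camk2b, Camk2n1 to Camk2n2 and Nrgn to Camk2a in each library, by region, with lines that join the libraries of a mouse (grey, wild-type; red, CD). In all mice with the regions compared, the first and second ratios rose from hippocampus to cortex and were lowest in the cerebellum. The Camk2n1 to Camk2n2 ratio was below 0 there, and in the third panel the cerebella spread over about the range of the whole panel.

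**Figure D3:**
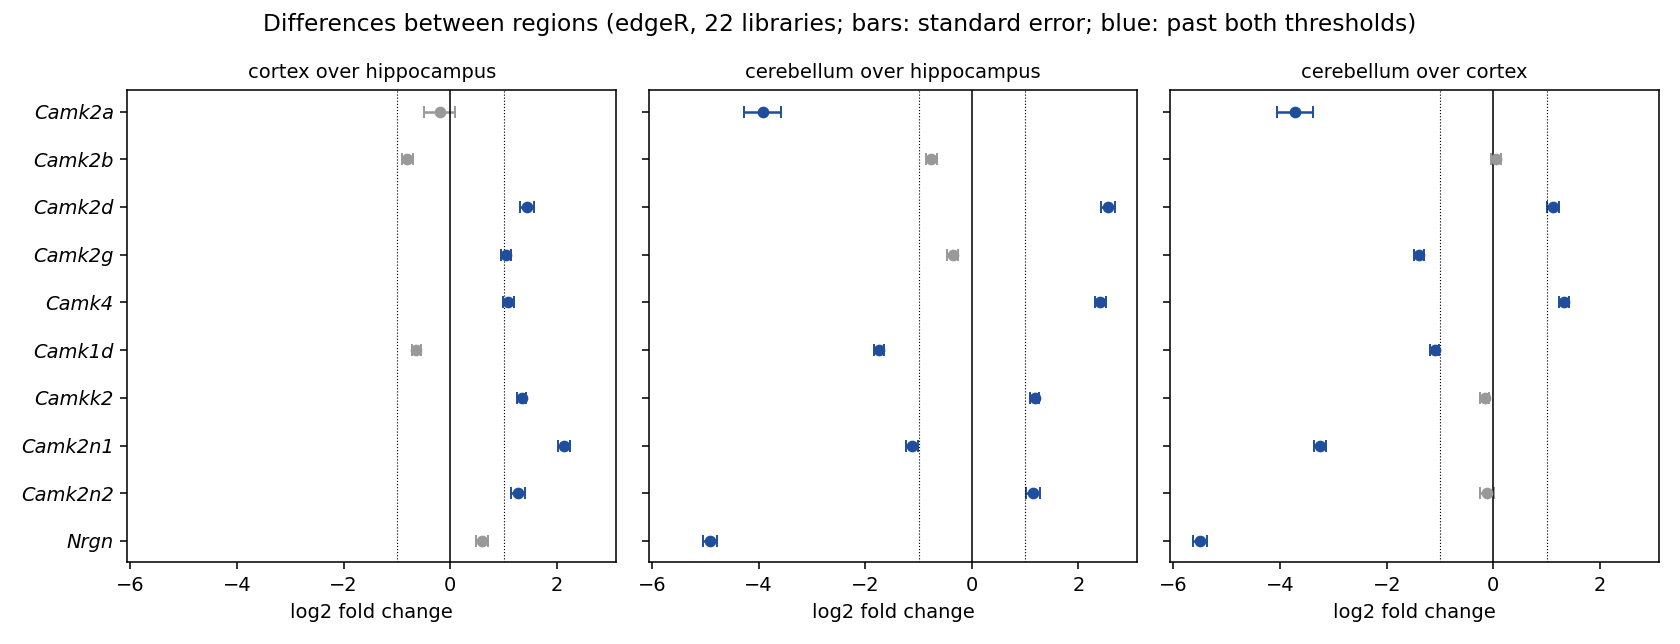
Log2 fold changes between regions by edgeR over 22 libraries, with standard errors as bars, for cortex over hippocampus, cerebellum over hippocampus and cerebellum over cortex. Blue points passed both thresholds (6, 8 and 7 genes), and dotted lines mark 2-fold.

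For each of the 10 genes, the most similar regional and genotype profile among all genes tested was found by the root mean square difference of the 6 group means of log2 cpm, each gene centred on its own mean. The measure is a description over 6 means, in which the difference between regions dominates, and the other 11136 genes were compared each time. For Camkk2 the nearest of these was another member, Camk2n2, at 0.053, and for Camk2n2 it was Camkk2, followed by Mb21d2 (0.0530). Camk2a was nearest to Cort (0.111) and Grin2b (0.171), and Nrgn to Dlgap2 (0.0490) and Chrm3 (0.111). Camk2d was nearest to Cacna1g (0.104) and Kitl (0.119), and Camk4 to Sgpp2 (0.126) and Kcnip1 (0.131). Camk2d and Camk4 were each other's nearest members, at 0.209. Camk2b was nearest to Qdpr (0.0525) and Sms (0.0532), Camk2g to Zfp945 (0.0674) and Fam124a (0.0789), Camk1d to Cdc42se2 (0.0680) and Plppr2 (0.0718), and Camk2n1 to Egr1 (0.118) and E2f1 (0.169). The second gene of Camkk2 was Atp2b2 (0.0710). Some of these genes had few counts in a region. In cerebella, mean levels were 0.66 cpm (wild type) and 0.85 cpm (CD) for Cort, 1.32 and 1.19 for Chrm3, and 2.23 and 2.11 for Dlgap2. Sgpp2 had 0.99 and 1.10 cpm in hippocampi. These levels include the 2 counts added before the logarithm, on which such low values largely depend.

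The promoters of Camkk2 and Camk2n2, whose profiles were nearest to each other, are shown with that of Nrgn, the gene with the largest regional difference. The windows are those of RefSeq on GRCm38.p6, from 250 bases before to 50 after the start, read 5′ to 3′ on the minus strand, at chr5:122779361-122779660, chr16:20621229-20621528 and chr9:37552696-37552995. Capitals mark matches on either strand to the GC box (letters GGGCGG), the CCAAT box (its own letters), the TATA box (letters TATAAA) and the cAMP response element (letters TGACGTCA), and matches to the GC box that overlap are counted separately and run together in capitals.
Camkk2: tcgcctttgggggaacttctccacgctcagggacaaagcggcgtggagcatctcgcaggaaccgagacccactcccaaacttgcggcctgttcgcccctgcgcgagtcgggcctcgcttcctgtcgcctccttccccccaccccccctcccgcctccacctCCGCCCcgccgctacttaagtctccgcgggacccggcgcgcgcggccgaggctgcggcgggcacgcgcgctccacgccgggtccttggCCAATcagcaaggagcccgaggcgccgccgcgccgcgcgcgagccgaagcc
Camk2n2: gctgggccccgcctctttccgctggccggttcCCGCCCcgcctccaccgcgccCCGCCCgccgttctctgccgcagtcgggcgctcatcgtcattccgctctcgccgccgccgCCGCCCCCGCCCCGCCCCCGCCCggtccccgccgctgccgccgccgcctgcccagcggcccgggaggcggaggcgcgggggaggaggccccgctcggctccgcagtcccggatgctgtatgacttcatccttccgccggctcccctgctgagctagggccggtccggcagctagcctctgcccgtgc
Nrgn: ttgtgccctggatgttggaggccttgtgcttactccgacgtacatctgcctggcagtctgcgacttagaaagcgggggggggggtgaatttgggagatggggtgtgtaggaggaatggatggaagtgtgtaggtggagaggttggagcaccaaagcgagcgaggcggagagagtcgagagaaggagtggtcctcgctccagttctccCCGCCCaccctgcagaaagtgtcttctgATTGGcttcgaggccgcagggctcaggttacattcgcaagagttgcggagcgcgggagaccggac
The Camkk2 window held 1 GC box and 1 CCAAT box, the Camk2n2 window 6 GC boxes and 0 CCAAT boxes, and the Nrgn window 1 and 1. None of the 3 windows held the letters of the TATA box or of the cAMP response element. Their GC contents were 73.3%, 79.0% and 59.3%, beside a median of 52.7% over the 32851 windows of the same length that were searched, which are not all windows of the genome. Of these windows, 35.7% held a GC box, 37.4% a CCAAT box, 13.6% a TATA box and 1.79% a cAMP response element. A promoter window was used for 6 of the 10 genes, and the others had none or are not reported here.

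Other genes of the pathway were examined in 3 lists. Among calmodulin and small calmodulin-binding proteins (Calm2, Calm3, Pcp4, Pcp4l1 and Gap43), 0 of 5 were called between hippocampus and cortex, and 1 of 5, Pcp4, in each comparison with the cerebellum. Pcp4, a calmodulin-binding protein of Purkinje cells that, as neurogranin does, carries an IQ motif, was higher in the cerebellum than in the hippocampus (2.39 ± 0.19, FDR = 8.04e-11) and the cortex (2.12 ± 0.18, FDR = 2.01e-10), opposite in direction to Nrgn. Calm2 and Calm3, which both encode calmodulin, had smaller differences. From hippocampus to cerebellum, Calm3 had a log2 fold change of -0.63 ± 0.10, FDR = 6.02e-06, under 2-fold. Of 12 further CaM kinases, related proteins and their phosphatases, 11 were tested. Of these, 2 were called higher in the cortex than in the hippocampus (Camk1g, 1.49 ± 0.13, FDR = 8.01e-10; Camk1, 1.28 ± 0.11, FDR = 7.42e-10), 6 were called lower in the cerebellum than in the hippocampus and 7 lower than in the cortex, with none called higher. Of all genes tested, 4.38% were called higher in the cortex than in the hippocampus, and 13.0% and 12.9% were called lower in the cerebellum than in the hippocampus and in the cortex. Camkv, which encodes a CaM kinase-like protein without kinase activity, had the largest of these differences, with log2 fold changes of -5.25 ± 0.13, FDR = 1.31e-20 against the hippocampus and -4.54 ± 0.13, FDR = 6.94e-20 against the cortex. Dapk1, the death-associated protein kinase, (-3.62 ± 0.14, FDR = 4.14e-17) and Ppm1e, a CaM kinase phosphatase, (-2.83 ± 0.12, FDR = 1.73e-16) followed against the hippocampus, and Dapk1 (-3.16 ± 0.14, FDR = 4.18e-16) and Camk1g (-2.32 ± 0.13, FDR = 6.25e-14) against the cortex.

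Of 11 targets and partners of the kinases, 10 were tested. Prkaa2, a catalytic subunit of AMPK, was the only one called between hippocampus and cortex (1.22 ± 0.16, FDR = 1.45e-06, higher in the cortex). In the cerebellum, 3 were called lower than in the hippocampus and 4 lower than in the cortex (beside 13.0% and 12.9% of all genes), with none called higher. These included Grin2b, an NMDA receptor subunit that binds CaM kinase II (-4.08 ± 0.15, FDR = 6.69e-18 and -3.90 ± 0.14, FDR = 9.82e-18), and Kalrn, a synaptic exchange factor (-3.43 ± 0.15, FDR = 4.20e-16 and -3.90 ± 0.15, FDR = 3.57e-17). They were followed by Rasgrf1, a Ras exchange factor regulated by calmodulin, against the hippocampus (-1.14 ± 0.12, FDR = 5.22e-09) and by Crem, a relative of CREB, against the cortex (-1.23 ± 0.19, FDR = 3.25e-06). Grin2b was also the second nearest gene to Camk2a in profile. The median log2 fold changes from hippocampus to cortex, from hippocampus to cerebellum and from cortex to cerebellum were 0.27, -0.18 and -0.32 for the first list, -0.22, -1.02 and -1.28 for the second and 0.16, -0.46 and -0.43 for the third, where those over all genes tested were -0.01, 0.02 and 0.02. Among the 10 genes, members were called in both directions in the cerebellum. Over the 3 lists together both directions were also seen. Pcp4, the only gene called in the first list, was higher there, and those called in the other 2 lists were lower. The difference between the lists was not tested.

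CD and wild-type mice were compared within each region. By edgeR's quasi-likelihood test, 0 of the 10 genes were called between genotypes in the hippocampus, the cortex or the cerebellum, and 0 had an unadjusted p below 0.05. Of all genes tested, 0% were called in each region, and 4.22%, 3.30% and 4.56% had such a p. DESeq2 also called 0 of the 10. The log2 fold changes of CD over wild type were -0.29 to 0.28 in hippocampi (standard errors, 0.10 to 0.22), -0.33 to 0.15 in cortices (0.10 to 0.21) and -0.22 to 0.49 in cerebella (0.10 to 0.53), with smallest FDRs of 0.997, 0.9999 and 0.981. The ranges of CD and wild-type libraries overlapped for all 10 genes in each region, where they did not overlap for 5.41%, 2.55% and 5.23% of all genes. Without the library labelled CD hippocampus of mouse m118, edgeR again called 0 of the 10 genes in the hippocampus, and 1 of the 10, Camk2a, had an unadjusted p below 0.05, beside 4.42% of all genes. The ranges then did not overlap for 2 of the 10 genes, beside 9.22% of all genes. These were Camk2a (753 to 797 cpm in CD against 829 to 1500.4 in wild type) and Camk1d (107 to 121 against 132 to 136 cpm).

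**Figure D4:**
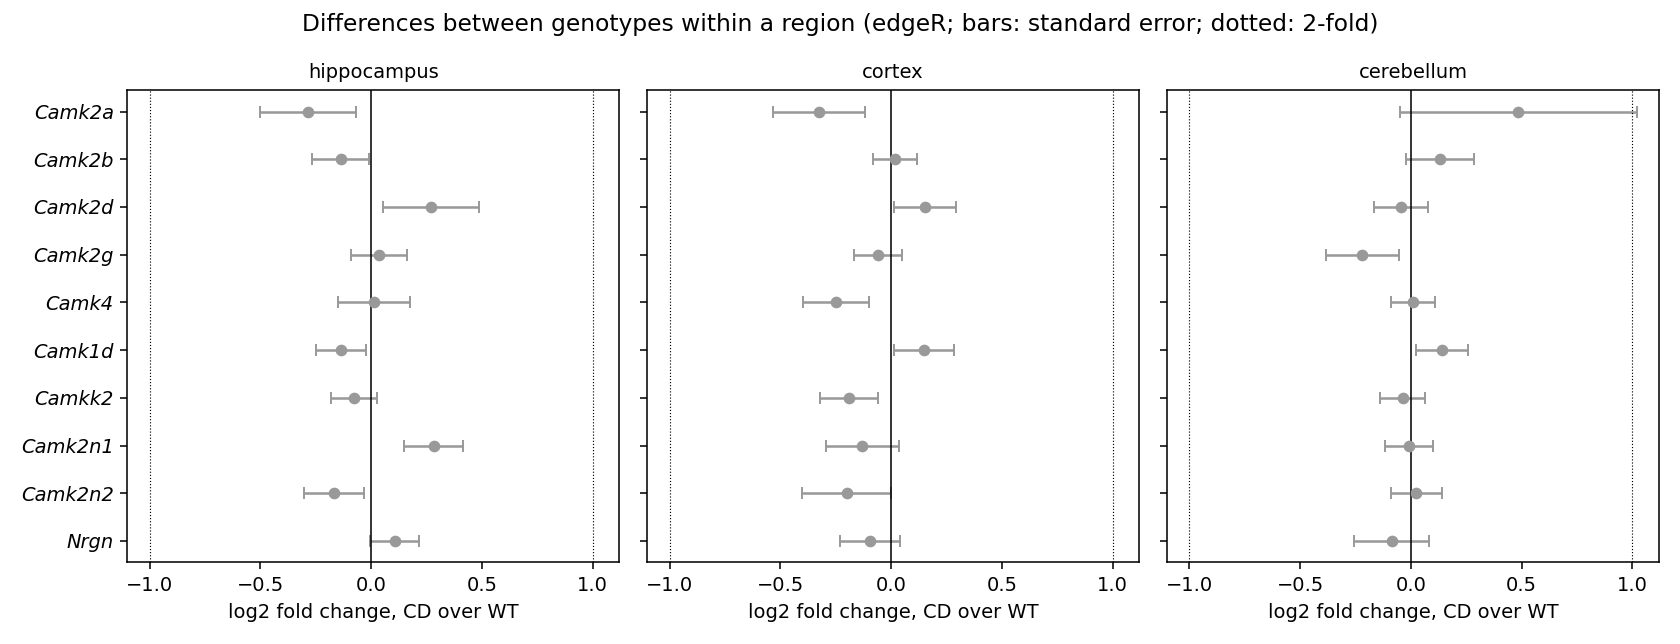
Log2 fold changes of CD over wild-type libraries within the hippocampus, cortex and cerebellum by edgeR, with standard errors as bars and 2-fold marked by dotted lines. No gene passed the thresholds, and the widest bar is that of Camk2a in the cerebellum (0.49 ± 0.53).

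Camk2n1 in the hippocampus had the smallest unadjusted p of the 10 genes in any region. Its level was 3051, 2162 and 2797 cpm in the wild-type hippocampi of mice m162, m240 and m244 and 3363, 3482, 2719.6 and 3394 cpm in the CD hippocampi of mice m118, m138, m190 and m242. The lowest CD library lay below both of the higher wild-type libraries. The log2 fold change was 0.28 ± 0.13 (FDR = 0.997) by edgeR, and without the library labelled CD hippocampus of mouse m118 it was 0.27 (FDR = 0.998). The log2 ratio of Camk2n1 to Camk2n2 differed by 0.47 between wild-type and CD hippocampi (3 and 4 libraries, higher in CD; exact permutation p = 0.114, adjusted p = 0.229), the smallest p of the 9 comparisons of ratios between genotypes, where 3 against 4 libraries can give 0.0286 at the smallest. Without mouse m118 the difference of this ratio was 0.35 (exact permutation p = 0.300, where 3 against 3 libraries can give 0.1 at the smallest).

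Camk2a was the gene whose value between genotypes depended most on single libraries. In the hippocampus it was 915, 829 and 1500.4 cpm in wild-type mice m162, m240 and m244 and 1212, 783, 797 and 753 cpm in CD mice m118, m138, m190 and m242. The log2 fold change was -0.29 ± 0.22 (FDR = 0.997), and it was -0.47 ± 0.19 (FDR = 0.998 by edgeR) without mouse m118, the library with the highest CD level. Without wild-type mouse m244 it was 0.02 (FDR = 0.998), with the sign turned. In the cortex it was 702, 709, 905 and 1497 cpm in wild-type mice m162, m164, m240 and m244 and 771, 756, 624 and 904 cpm in CD mice m118, m138, m190 and m242, a log2 fold change of -0.33 ± 0.21 (FDR = 0.9999). Leaving out 1 cortex at a time gave -0.45 to -0.02, with the value nearest to 0 without wild-type mouse m244. In the cerebellum the wild-type mice m162, m164, m240 and m244 had 29.6, 131, 25.8 and 32.0 cpm and the CD mice m118, m190 and m242 had 49.2, 38.7 and 138.2 cpm, a log2 fold change of 0.49 ± 0.53 (FDR = 0.981). It was 1.39 (FDR = 0.632) without wild-type mouse m164 and -0.32 (FDR = 0.974) without CD mouse m242. The wild-type hippocampus of mouse m244, with the highest Camk2a, also had the highest summed level of choroid plexus markers (Ttr, Folr1, Kl and Kcne2), 8234 cpm, where hippocampi had 126 to 8234 cpm. The CD hippocampus of mouse m118, with the second highest Camk2a, had the lowest. The part of choroid plexus in these levels was not tested.

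Of the remaining genes, Camk2d, Camk2b, Camk1d and Nrgn are given for the hippocampus and Camk4 and Camkk2 for the cortex, and none passed the test. In the hippocampus the log2 fold change of CD over wild type was 0.27 ± 0.22 (FDR = 0.997) for Camk2d, -0.14 ± 0.13 (FDR = 0.997) for Camk2b, -0.14 ± 0.11 (FDR = 0.997) for Camk1d and 0.11 ± 0.11 (FDR = 0.997) for Nrgn. Without the library of mouse m118, these were 0.39, -0.17, -0.22 and 0.08, each with an FDR of 0.998. In the cortex, Camk4 had -0.25 ± 0.15 (FDR = 0.9999) and Camkk2 -0.19 ± 0.13 (FDR = 0.9999). In the cerebellum, Camk4 and Camk2n1 had 0.01 ± 0.10 and -0.01 ± 0.11. At these errors a change of 2-fold would lie several standard errors from the values of Camk4 and Camk2n1 there, but not from that of Camk2a.

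Over the 3 regions together, limma-voom with mice as random blocks found that 0 of the 10 genes were below an FDR of 0.05, as were 0% of all genes, and 0 of the 10 had an unadjusted p below 0.05, beside 3.58% of all genes. The log2 fold changes ranged from -0.11 ± 0.11 for Camk2n2 to 0.14 ± 0.10 for Camk2d, with the largest standard error for Camk2a (0.04 ± 0.23). Whether the difference between genotypes varied between regions was tested directly by the interaction in edgeR, with 0 of the 10 below an FDR of 0.05 (all FDR = 0.999; 0% of all genes) and 0 with an unadjusted p below 0.05 (3.91% of all genes). Of the other pathway genes, 0 of 26 tested in the hippocampus and cortex and 0 of 25 in the cerebellum were called between genotypes. In each region 1 had an unadjusted p below 0.05 by edgeR, beside 4.22%, 3.30% and 4.56% of all genes. These were Gap43 in the hippocampus (0.70, FDR = 0.997 by edgeR), Dapk1 in the cortex (0.38, FDR = 0.9999) and Hdac4 in the cerebellum (0.48, FDR = 0.981). These 3 genes were singled out after their values were seen. Gap43 was highest in the library labelled CD hippocampus of mouse m118, at 236 cpm. The other CD hippocampi had 122 to 202 cpm, and wild-type hippocampi had 99.7 to 129 cpm.

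The regional differences were seen in both genotypes when each was fitted alone. From hippocampus to cortex, 6 of the 10 genes were called in wild-type libraries and 4 in CD libraries, where Camk2g (log2 fold change, 0.997) and Camk4 (0.96) were just under 2-fold. From hippocampus to cerebellum, 7 were called in wild-type libraries, without Camk2n1, and 8 in CD libraries, and from cortex to cerebellum 7 were called in each. Of all genes tested in the same fits, 7.45%, 21.3% and 21.3% were called in wild-type libraries and 7.04%, 22.3% and 22.2% in CD libraries, in this order of comparisons. The difference between the genotypes in these counts was not tested apart from the interaction above. With the mouse as a block, the log2 fold changes of Camk2a were -0.29, -4.24 and -3.95 (cortex over hippocampus, cerebellum over hippocampus, cerebellum over cortex), and 6, 8 and 7 genes were called.

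On GRCm38, RefSeq places Camk2b at chr11:5969629-6066357 on the minus strand, Camk2d at chr3:126595487-126846326 on the plus strand, Camk2g at chr14:20734873-20794157 on the minus strand and Camk1d at chr2:5293457-5714860 on the minus strand. Camkk2 lies at chr5:122718380-122779522 on the minus strand, Camk2n1 at chr4:138455148-138460126 on the plus strand, Camk2n2 at chr16:20619215-20621278 and Nrgn at chr9:37544493-37552745, both on the minus strand. Camk2n1, Camk2n2 and Nrgn were each listed as 1 transcript, and the other 7 genes as 4 to 30, of which most had totals within 1% of the highest of the gene.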

How the data were processed

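The authors deposited raw counts per RefSeq transcript, made by alignment to mm10 (STAR) and end-sequence counting (End Sequence Analysis Toolkit). Tool versions, the handling of the molecular identifiers and the use of strand are not given in the sources used here. Each mouse gave at most 1 library per region, so dissection and library preparation are part of the spread between libraries. Transcripts were matched to GRCm38 RefSeq symbols without version (69288 of 85964, with 18.6% of the counts unmatched), and the transcript with the highest total stood for a gene. Groups and mice came from the sample titles, and the variance between libraries of 1 group was 5.68 to 17.5 times that of counting error. Genes reaching 5 cpm in 2 or more libraries were kept and scaled by TMM, over 22 libraries between regions (6 group means) and within a region between genotypes. Tests used edgeR 4.0.16 and limma 3.58.1 in R 4.3.3, with DESeq2 1.42.0 as an alternative. The edgeR and limma tests were also run on counts simulated with the same spread for every gene and no effect of the mouse. Such counts do not cover genes as variable as Camk2a. Named genes were the 10 members, the 2 nearest profiles of each, and up to 3 called genes with the largest fold per list and comparison. Calm3, P2rx4, Gap43, Hdac4, and Dapk1 between genotypes, were named after their values were seen. The members and lists were chosen with earlier results of these data known, and some listed genes are not reported here. Mice gave several regions, so the mouse numbers pair the samples. Over 20 pairs of libraries, deviations from the group means correlated by -0.080 to 0.182 (median, 0.045). Biological coefficients of variation were 15.5% over 22 libraries and 15.6%, 16.0% and 14.0% within hippocampus, cortex and cerebellum.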

Additional observations from a re-analysis of the deposited data

Results flagged for a closer look

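In 52 groups of 4 libraries (the 10 genes and 3 log2 ratios in each group of that size), the highest or lowest library was tested for a gap from the rest by Dixon's criterion, and 4 groups met it, where chance gives about 2.6. Camk2a in the library labelled CD hippocampus of mouse m118 was 1212 cpm, against 753 to 797 cpm in the other CD hippocampi. This is the library whose Tulp4 counts lay with the wild-type libraries, and it had the lowest total of the hippocampi. Camk2a in the wild-type cerebellum of mouse m164 was 131 cpm, against 25.8 to 32.0 cpm in the other wild-type cerebella. Camk2n1 in the CD hippocampus of mouse m190 was 2720 cpm, against 3363 to 3482 cpm in the others. The log2 ratio of Camk2n1 to Camk2n2 in the wild-type cerebellum of mouse m162 was -0.45, against -0.66 to -0.63.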

How the results depend on the processing

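The counts of called genes among the 10 were 6, 8 and 7 between hippocampus and cortex, hippocampus and cerebellum, and cortex and cerebellum. They were the same counts with size factors from relative log expression, without the filter, by DESeq2, with transcripts of different counts summed, and with the mouse as a block, where paired differences gave 6, 8 and 7. Leaving out each library in turn gave 5 to 6, 8 and 7, with the lower count without the CD hippocampus of mouse m242. No called fold change reversed. Fold changes of genes not called changed sign in 2 of 87 values between cortex and cerebellum and in 38 of 510 between genotypes, and 0 of the 10 genes were called between genotypes under any setting. Over all genes, 1471 were called between hippocampus and cortex without the filter, against 937, and between genotypes in the hippocampus, cortex and cerebellum 6, 3 and 10 without the filter and 2, 1 and 0 by DESeq2, against 0. Between genotypes, no paired analysis was possible because the genotypes share no mouse. For the log2 ratios, an unpaired exact permutation test without the replicate block, in which libraries of a mouse count as independent, gave adjusted p values below 0.05 for 8 of the 9 differences between regions: 0.61, -3.45 and -4.05 for Camk2a to Camk2b, 0.85, -2.30 and -3.14 for Camk2n1 to Camk2n2, each in the order above, and 0.76 (hippocampus to cortex) and -1.48 (cortex to cerebellum) for Nrgn to Camk2a. The lowest counts of any of the 10 genes in a library were 86 for Camk2d (CD hippocampus of mouse m118) and 139 for Camk2a (wild-type cerebellum of mouse m240).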
